A study of Homo sapiens with 12 samples.

Results

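Vehicle-treated cells of 2 lines, both labelled as HCT 116 human colon carcinoma cells, were compared for genes that mark a cell lineage, for transcription factor genes and for genes of surface proteins. The libraries were chosen by their labels, 6 of the 12 in the series. One group of 3 libraries came from HCT 116p53-/- cells, colon carcinoma cells that lack p53, and is called the parental line here, after its label. The other group of 3 came from cells that the labels describe as P53-/- with a knockout of RPL3, the gene of the ribosomal protein uL3, and that the study's methods describe as uL3ΔHCT 116p53-/-, a sub-line derived from the parental cells and stably silenced for uL3. All 6 libraries were from cells that lack p53 by label and received vehicle (labelled CTR), for a time the labels do not give. The other 6 libraries, treated with 5 nM Act D for 24 h, entered the low-count filter, the scaling and the estimate of the spread. Their own levels are not described. With the 6 vehicle libraries alone, 14901 genes passed the filter, against 15692 with all 12. There was 1 line for each genotype, so that the RPL3 label and any other difference between the lines cannot be told apart. The labels call the libraries of a group biological replicates.

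Expression was measured by RNA-seq and is given in CPM, counts brought to a common library total with edgeR's TMM factors. A fold change is the libraries labelled RPL3 KO relative to the parental line. Totals were between 13285215 and 14570545 counts in the parental libraries and between 12626721 and 21138886 in the others. Log2 CPM correlated at 0.985 to 0.986 among the parental libraries, at 0.982 to 0.989 among those labelled RPL3 KO and at 0.789 to 0.803 between the lines. All adjusted p values below are from the quasi-likelihood test of edgeR, adjusted by Benjamini and Hochberg's method over 15692 genes, and 71.3% of these genes were under 0.05. Groups that did not overlap were found for 72.5%. A second rule therefore also asked for a fold change of at least 4, and 18.1% of genes passed it, 8.85% in the upward and 9.21% in the downward direction. With scaling to the library size and no TMM factors, the median of all genes moved from -0.02 to -0.26 on the log2 scale and the division of the calls from 5501 higher and 5684 lower to 4202 and 6974.

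The RPL3 label was read against its gene first. RPL3 (ENSG00000100316, chromosome 22, 39312882 to 39320389, minus strand, hg38) was at 1151, 1121 and 1141 CPM in the parental libraries and at 1188, 1337 and 1202 CPM in those labelled RPL3 KO. It was not lower in any library labelled as its knockout, and its log2 difference was 0.13 (standard error 0.08, adjusted p = 0.155), or -0.11 when libraries were scaled by size alone. Reads outside a deleted or disrupted part of a gene can persist, so these levels do not check a frame-shifting edit of RPL3. The study's methods describe uL3 as stably silenced in this line. At the RNA level no reduction of RPL3 was seen, with means of 1138 CPM in the parental line and 1242 CPM in the other. Protein was not measured here. No genotype was analysed here, and whether both sets of libraries come from HCT 116 cells was not tested. A fold between the lines is therefore a difference between libraries with these labels and need not be a change that arose from the parental line.

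The epithelial state of a cell is held by adhesion genes such as CDH1, by splicing regulators of the ESRP family and by transcription factors of the GRHL and OVOL families. ZEB and SNAI factors repress many of these genes through E-boxes, while mesenchymal cells make vimentin and collagens. Intestinal identity rests on further factors, among them CDX2 and HNF4A, and on products of absorptive and secretory cells. Forkhead, GATA, SOX and nuclear receptor genes are each used in restricted sets of tissues, and cadherins, claudins, ephrins and their receptors determine which cells attach to which.

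A total of 1130 genes in 45 lists was examined, and 1009 of them had a count in at least 1 of the 6 libraries. Of these, 665 passed the filter on low counts and were tested. Of these 298 were higher, 259 were lower and 108 did not pass, so that 83.8% were called against 71.3% of all genes (35.1% higher and 36.2% lower). Of the 1130, 477 were below 1 CPM in every library of both lines. Passing at 4-fold were 39.5% of the tested members, against 18.1% of all genes. A gene expressed in only 1 of the lines passes the low-count filter through that line and had to differ, so these shares do not stand for all members. Over genes with a mean of at least 10 CPM over the 6 libraries, a level that 1 line alone can also supply, the share was 57.9% of 76 lineage genes, 21.5% of 149 transcription factor genes and 29.6% of 142 surface genes, beside 8.36% of all 9225 such genes. The plot of list shares gives both directions for each list over all its members. Counts of called members in single lists below stand beside the 71.3% of all genes called.

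**Figure D1:**
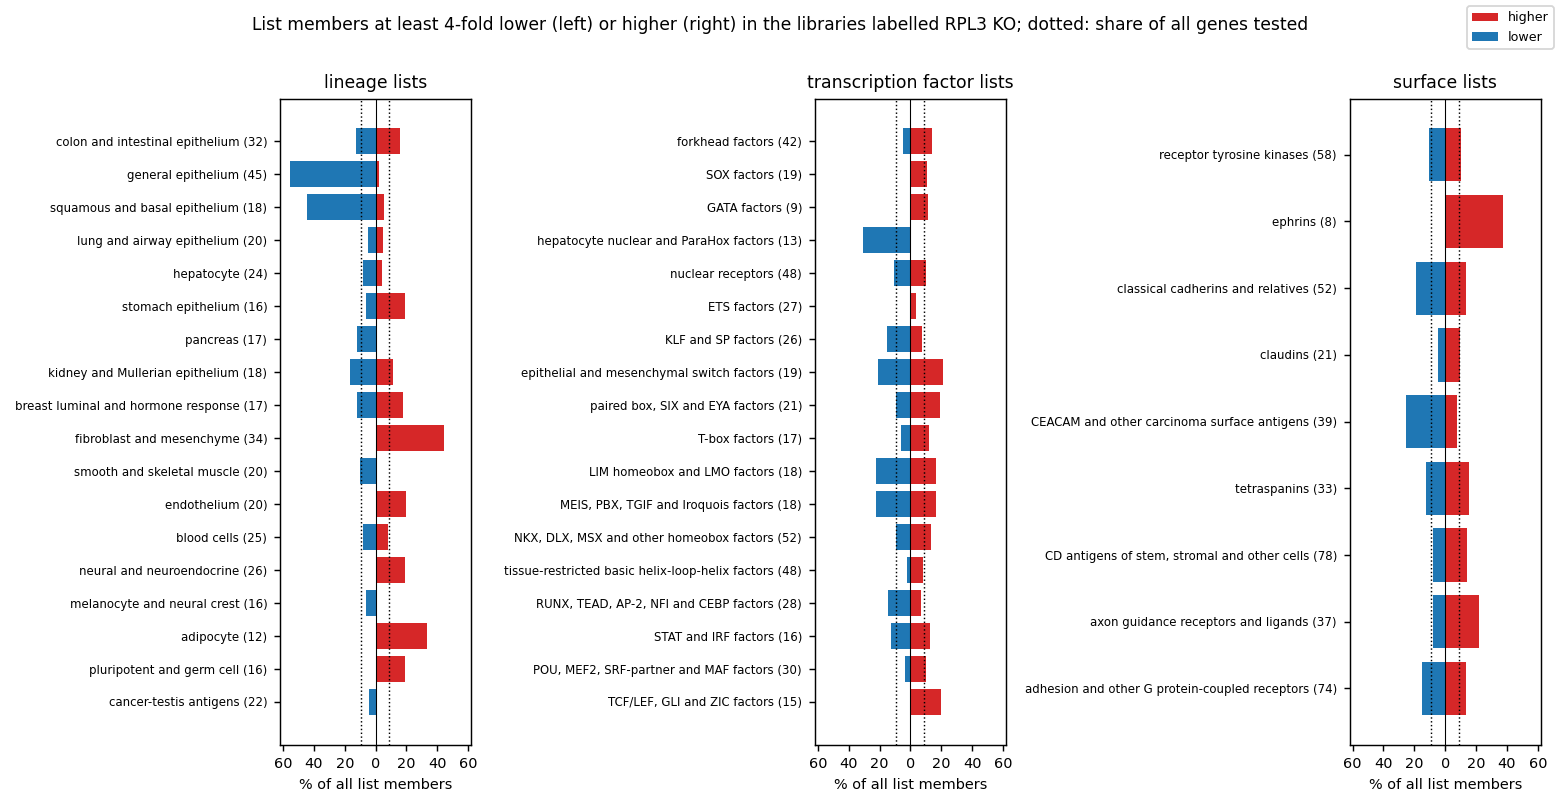
Share of all members of each list (number of members in brackets) that were at least 4-fold lower (blue, left) or higher (red, right) in the libraries labelled RPL3 KO at an adjusted p under 0.05, with dotted lines at the shares of all genes tested, 9.21% and 8.85%. The general epithelium list reaches furthest to the left with 25 of 45 members, and the fibroblast and mesenchyme list furthest to the right with 15 of 34. The bars also count members that were not tested, which the dotted lines leave out, so bar and line have different denominators.

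Genes of the general epithelial programme were lower in the libraries labelled RPL3 KO. The list had 45 members, all with counts, and 43 were tested. Of these 37 were lower, 4 were higher (GRHL1, SPINT2, KRT18 and KRT7) and 2 did not pass (CLDN3 and MAPK13), and at 4-fold 25 were lower and 1 was higher. The median log2 fold change was -2.36, against -0.02 over all genes tested. Among the 33 members with a mean of at least 10 CPM, 21 passed at 4-fold (63.6%, against 8.36% of all such genes). The summed level of the list was 4767 to 5127 CPM in the parental libraries and 2322 to 2542 CPM in the others.

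CDH1 (ENSG00000039068, chromosome 16, 68737292 to 68835537, plus strand, hg38), which encodes E-cadherin, the adhesion molecule of epithelial cell contacts, was at 68.8, 64.3 and 67.3 CPM in the parental libraries and at 0.161, 0.701 and 0.473 CPM in those labelled RPL3 KO. The groups lay far apart, with a 150.3-fold difference of the means (log2 difference -7.08, standard error 0.23, adjusted p = 1.33e-14). GRHL2, a transcription factor that maintains epithelial junction genes, was at 24.1, 29.2 and 27.1 CPM against 0, 0.200 and 0.0675 CPM, and OVOL1, a repressor of mesenchymal genes, at 10.2, 9.37 and 11.9 CPM against 0.321, 0 and 0.0675 CPM. Both were near absence in all 3 libraries labelled RPL3 KO (adjusted p = 9.78e-14 and 3.7e-11). ESRP1, a regulator of epithelial splicing, kept part of its expression, with 58.2, 60.2 and 62.5 CPM against 6.35, 8.66 and 8.04 CPM (log2 difference -2.96, standard error 0.12, adjusted p = 2.35e-13). Its relative ESRP2, named after its values were seen, had means of 55.7 and 0.272 CPM (adjusted p = 1.35e-15).

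The lower levels extended to trafficking, junction and protease genes, although not evenly. RAB25, a small GTPase of epithelial recycling endosomes, was at 46.3, 48.1 and 45.1 CPM in the parental libraries and at 0.0803, 0 and 0.0675 CPM in the others, where it had 2 counts in all. LAD1, a basement membrane anchor protein, was at 92.7, 100.7 and 77.9 CPM against 0.161, 0.200 and 0.338 CPM, 388.5-fold lower (adjusted p = 8.34e-16). The 3 libraries of each line did not overlap for either gene, nor for EPCAM, whose difference was smaller. EPCAM, the epithelial adhesion molecule used to mark carcinoma cells, was at 168.1, 145.1 and 147.3 CPM against 37.1, 32.9 and 36.5 CPM, 4.32-fold lower (adjusted p = 5.84e-13). ST14, the membrane protease matriptase, and AP1M2, an epithelial sorting adaptor, were chosen after their values were seen and were 202.5-fold and 19.2-fold lower.

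Simple-epithelium keratins stayed high in both lines. KRT8 was at 1047, 1182 and 1120 CPM in the parental libraries and at 804, 813 and 714 CPM in the others (log2 difference -0.52, adjusted p = 5.18e-05), and its partner KRT18 was at 616, 623 and 576 CPM against 818, 899 and 804 CPM (log2 difference 0.47, adjusted p = 2.28e-05). KRT19, named after its values were seen, was 16.7-fold lower, with means of 608.5 and 36.6 CPM. KRT7, a keratin of glandular and ductal epithelia that most intestinal cells lack, was at 1.62, 2.89 and 1.75 CPM against 125, 101.2 and 92.7 CPM, 50.9-fold higher (log2 difference 5.67, standard error 0.18, adjusted p = 9.79e-15). KRT8 and KRT18 differed by at most 1.44-fold between the means of the lines, while KRT7 and KRT19 differed in opposite directions.

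Squamous and basal keratins and desmosome genes were lower in the libraries labelled RPL3 KO for 8 of the 10 members tested. The other 2 were higher, and at 4-fold 8 were lower and 1 was higher. KRT13 had 10.2, 11.4 and 10.2 CPM in the parental libraries and no count in the others, at least 44.1-fold lower. COL17A1, the hemidesmosomal collagen, was at 18.4, 16.1 and 15.6 CPM against 0.643, 0.801 and 0.810 CPM, 22.2-fold lower (adjusted p = 3.56e-13), and DSC3, a desmosomal cadherin, at 8.88, 8.95 and 8.51 CPM against 0.0803, 0.10 and 0.405 CPM. The master factor of that lineage, TP63, was at or below 0.241 CPM in every library of both lines, and KRT5 at or below 0.608 CPM. KRT14, the third defining basal marker, was at 1.17, 0.895 and 1.33 CPM in the parental libraries and had no count in the others, at least 4.69-fold lower (adjusted p = 2.77e-05). PERP, a desmosome-associated membrane protein, was 2.17-fold higher in the libraries labelled RPL3 KO (adjusted p = 2.33e-08).

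Repressors of the ZEB and SNAI families bind the E-box CAGGTG, which reads as CACCTG on the opposite strand. These 6 letters were searched on both strands of the RefSeq promoters (GRCh38.p14), taken as the 250 bases before a start. The table held the E-box in 6143 of 35116 promoters (17.5%), and in 16.2% of the promoters of all genes tested. It was present in 18 of 35 promoters of 26 epithelial list genes (51.4%), in 12 of 16 promoters of the members lower at 4-fold (75%) and in 6 of 19 promoters of the other members (31.6%). Of the 25 members lower at 4-fold, 12 had a promoter in the table, so these shares leave the other members out. Several promoters shared a gene, the list was chosen with results known and no test was made. A match of 6 letters is a description and not a binding site. The promoters of RAB25, AP1M2 and MYO5B, the last encoding a motor of apical recycling, are shown as examples from genes that were all lower at 4-fold, with the E-box in capitals, 5′ to 3′ on the strand of the gene.
RAB25: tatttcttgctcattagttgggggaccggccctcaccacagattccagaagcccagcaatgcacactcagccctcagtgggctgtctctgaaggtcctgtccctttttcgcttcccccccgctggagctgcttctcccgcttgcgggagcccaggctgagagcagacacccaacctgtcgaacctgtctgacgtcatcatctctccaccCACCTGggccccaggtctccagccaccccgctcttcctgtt
AP1M2: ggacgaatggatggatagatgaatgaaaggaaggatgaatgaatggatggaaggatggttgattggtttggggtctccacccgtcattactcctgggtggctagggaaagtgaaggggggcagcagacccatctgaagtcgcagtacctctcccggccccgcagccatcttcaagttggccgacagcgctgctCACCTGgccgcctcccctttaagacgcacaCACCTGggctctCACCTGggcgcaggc
MYO5B: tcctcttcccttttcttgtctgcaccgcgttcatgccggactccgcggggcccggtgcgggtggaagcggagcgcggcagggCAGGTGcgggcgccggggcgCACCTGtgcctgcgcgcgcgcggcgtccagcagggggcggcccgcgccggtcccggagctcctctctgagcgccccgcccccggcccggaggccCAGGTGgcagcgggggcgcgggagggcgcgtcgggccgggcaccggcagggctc
The RAB25 sequence covers chr1:156060910-156061159 (plus strand) and holds 1 match, beginning 41 bases before the start. The AP1M2 sequence covers chr19:10587313-10587562 (minus strand) with 3 matches, beginning 57, 27 and 15 bases before the start. The MYO5B sequence covers chr18:50195148-50195397 (minus strand) with 3 matches, beginning 168, 148 and 54 bases before the start. MYO5B itself was lower in the libraries labelled RPL3 KO, with means of 50.4 and 9.51 CPM (log2 difference -2.40, standard error 0.10).

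Mesenchymal genes were mostly higher in the libraries labelled RPL3 KO, but not as a complete programme. Of 34 members, 33 had counts and 24 were tested, and 21 were higher, 2 were lower (COL1A1 and CAV1) and 1 did not pass (CDH2). At 4-fold 15 were higher and 0 were lower, with a median log2 fold change of 2.64, and 10 of the 15 members with a mean of at least 10 CPM passed (66.7%). The summed level of the list was 861 to 908 CPM in the parental libraries and 4407 to 4645 CPM in the others.

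VIM (ENSG00000026025, chromosome 10, 17228241 to 17237593, plus strand, hg38), the gene of the mesenchymal intermediate filament vimentin, was at 25.9, 20.4 and 19.7 CPM in the parental libraries and at 2271, 2211 and 2230 CPM in the others, 101.8-fold higher (log2 difference 6.67, standard error 0.20, adjusted p = 5.1e-15). COL3A1, a fibrillar collagen, was at 0.324, 0.413 and 0.181 CPM against 69.5, 53.7 and 50.4 CPM, and PDGFRA, a growth factor receptor of stromal cells, at 0.0648, 0.0689 and 0 CPM against 26.0, 26.9 and 27.0 CPM. In all of these the groups were far from overlap (adjusted p = 1.21e-14 for COL3A1 and 3.34e-14 for PDGFRA). LUM, the gene of lumican, was listed at 0 in every parental library and at 7.71, 11.9 and 11.9 CPM in the others, at least 50.8-fold higher.

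The defining stromal markers were not all higher. PDGFRB, another receptor of stromal cells, was higher, at 0.389, 0.482 and 0.362 CPM in the parental libraries and at 1.53, 1.35 and 2.30 CPM in the others (4.19-fold, adjusted p = 0.000301). COL1A1, the main chain of type I collagen, was at 7.0, 6.61 and 8.88 CPM in the parental libraries and lower in the others, at 5.62, 3.50 and 3.31 CPM (log2 difference -0.88, standard error 0.22, adjusted p = 0.0018). COL1A2, the second chain, was at or below 0.843 CPM in every library, and THY1, a surface marker of fibroblasts, at or below 0.138 CPM. CAV1, the coat protein of caveolae and a member not marked as defining, was 2.91-fold lower, at 113, 127 and 132 CPM against 382, 341 and 363 CPM (adjusted p = 1.13e-11). POSTN had no count in any library. Among members chosen after their values were seen, COL6A3 had means of 1.06 and 277 CPM and FN1, fibronectin, of 22.6 and 249 CPM.

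**Figure D2:**
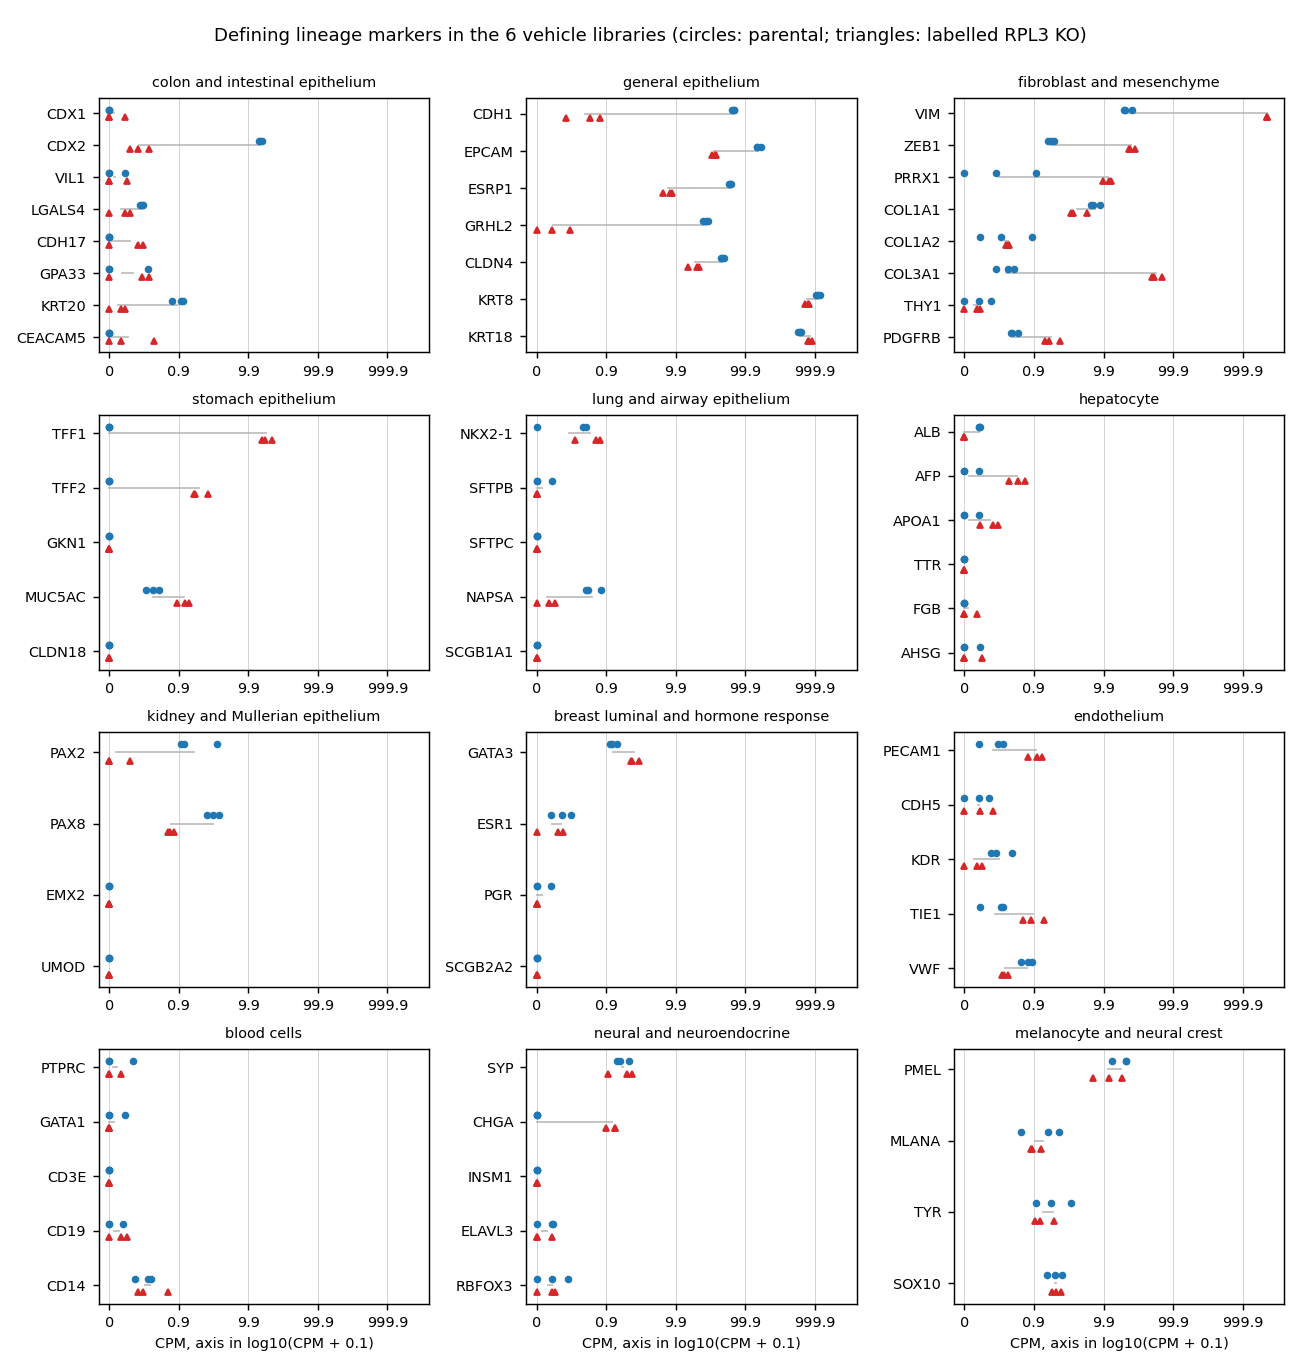
CPM of defining markers of 12 lineage lists in each of the 6 vehicle libraries, on an axis in log10(CPM + 0.1), with circles for the 3 parental libraries, triangles for the 3 labelled RPL3 KO and a grey line between the means on that scale. CDX2, CDH1 and GRHL2 lie far higher in the parental line and VIM, COL3A1, ZEB1 and TFF1 in the other, while most defining lung, hepatocyte and blood markers lie at or near 0 in both.

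Markers of the colon, the tissue of origin of the parental line, were sparse in both lines. Of 32 intestinal genes, 31 had a count, 9 were tested and 24 were below 1 CPM in every library of both lines. CDX1, VIL1 (villin), LGALS4, CDH17, GPA33 and CEACAM5, all defining markers of intestinal epithelium, were at or below 0.338 CPM in every library and were not tested. CDX2, the homeobox factor of intestinal identity, was the exception, at 14.2, 15.4 and 14.8 CPM in the parental libraries and 0.161, 0.10 and 0.270 CPM in the others (log2 difference -6.37, standard error 0.29, adjusted p = 1.11e-12). KRT20, a keratin of differentiated colonocytes, had a mean of 0.897 CPM in the parental line and 0.0392 CPM in the other (adjusted p = 7.04e-05). HNF4A, chosen after its values were seen, had 27 counts over the parental libraries and 1 count over the others.

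The tested intestinal genes divided into 5 that were higher and 4 that were lower in the libraries labelled RPL3 KO. TFF3, a trefoil peptide of goblet cells, was at 0.0648, 0 and 0 CPM in the parental libraries and at 7.07, 10.0 and 8.44 CPM in the others, and TSPAN8, a tetraspanin of gut and other carcinomas, at 0, 0.138 and 0 CPM against 10.2, 14.9 and 13.0 CPM. CA2, carbonic anhydrase 2, went the other way, at 12.8, 12.2 and 11.2 CPM against 0.562, 0.350 and 0.675 CPM, 22.8-fold lower (adjusted p = 5.26e-10). LGR5, a receptor of intestinal stem cells named after its values were seen, had 1 count over the parental libraries and 131 over the others.

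Of 7 stomach genes tested, 5 were higher and 1 was lower in the libraries labelled RPL3 KO, with 3 and 1 at 4-fold. TFF1, a trefoil peptide of the gastric surface, was at 0 in the parental libraries and at 17.4, 21.9 and 15.5 CPM in the others, at least 88.5-fold higher, and SOX2, a factor of stem cells and foregut, had 1 count against 312. TFF2, a mucous neck cell peptide, was at 0 in the parental libraries and at 2.49, 1.60 and 1.55 CPM in the others, at least 9.11-fold higher, and MUC5AC, the surface mucin, was 3.36-fold higher, while GKN1 and CLDN18 had no count in any library and ANXA10 was 17.6-fold lower. In the breast luminal list 5 of 8 genes tested were higher and 3 were lower. AGR2, a protein disulfide isomerase of secretory epithelia, was at 0, 0.0689 and 0.0604 CPM against 48.5, 70.0 and 60.4 CPM (adjusted p = 2.89e-15). ESR1 and PGR, the receptors that define hormone-responsive breast epithelium, were at or below 0.207 CPM throughout, and SCGB2A2 had no count. GATA3 was low in both lines, with means of 1.15 and 2.40 CPM.

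The 12 fat cell genes summed to between 26.9 and 27.0 CPM in the parental libraries and to between 1024 and 1169 CPM in the others, and 1 gene supplied most of the difference. FABP4, a lipid chaperone of adipocytes and macrophages, was at 0.519, 0.826 and 0.181 CPM against 863, 978 and 955 CPM, 1832-fold higher (log2 difference 10.85, standard error 0.20, adjusted p = 2.14e-17). PPARG, the nuclear receptor that directs adipocyte differentiation, was at 11.5, 9.57 and 10.5 CPM against 131, 164 and 165 CPM, 14.6-fold higher (adjusted p = 3.21e-15), and PLIN4, a lipid droplet coat protein, was 15.7-fold higher. The defining genes of the adipocyte, ADIPOQ, LEP and PLIN1, were at or below 0.242 CPM in every library of both lines. CEBPA, the partner factor of PPARG in fat cells, was 2.59-fold lower.

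Below 1 CPM in every library of both lines were 19 of 24 liver, 14 of 17 pancreas and 15 of 20 lung genes. So were 18 of 25 blood, 10 of 18 kidney and 10 of 20 muscle genes. ALB, TTR, FGB and AHSG were at or below 0.0803 CPM in every library, and INS, CPA1, PTF1A, SFTPC, SCGB1A1, UMOD, EMX2, CD3E, MYOD1 and MYOG had no count in any of them. NKX2-1, a factor of lung and thyroid, was at 0.250 to 0.723 CPM in the libraries where it was detected and was not tested. PAX8, a factor of kidney, thyroid and the female tract, was at 2.46, 3.03 and 3.74 CPM in the parental line and 4.62-fold lower in the other (adjusted p = 5.77e-05). CPS1, the first enzyme of the urea cycle, which liver and intestine make, was 32.3-fold lower, with 34.1, 33.3 and 33.0 CPM against 0.723, 1.10 and 1.28 CPM. Of 9 muscle genes tested, 2 were higher and 5 were lower. SMTN, the smooth muscle protein smoothelin, was at 91.3, 113.2 and 100.4 CPM against 33.0, 28.0 and 27.0 CPM, 3.46-fold lower, while TAGLN, an actin-binding protein, was 3.88-fold higher and DES, desmin, 2.20-fold higher.

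In the endothelial list 5 of 7 genes tested were higher and 1 was lower. PROX1, the factor of lymphatic endothelium, liver and lens, was at 0.0648, 0 and 0 CPM in the parental libraries and at 22.6, 23.4 and 27.8 CPM in the others, without CDH5 or KDR, which were at or below 0.389 CPM. PECAM1 and TIE1 reached 1.2 and 1.28 CPM at most and were higher in the libraries labelled RPL3 KO. Their log2 differences were 2.465 and 2.148 (adjusted p = 0.00127 and 0.00228). VWF was lower, with means of 0.706 and 0.281 CPM (log2 difference -1.327, adjusted p = 0.027). LIN28B, an RNA-binding repressor of let-7 microRNAs that is active in embryonic and some cancer cells, was at 0.0648, 0 and 0.181 CPM against 55.6, 56.4 and 49.5 CPM (adjusted p = 6.92e-15), whereas POU5F1 and NANOG, the core pluripotency factors, were at or below 0.785 CPM in all libraries. Of 11 neural and neuroendocrine genes tested, 6 were higher and 4 were lower. TUBB3 was among the lower genes, with means of 145.7 CPM in the parental line and 83.0 CPM in the other. So were MAP2 (19.25 and 6.97 CPM) and SCG2 (13.66 and 7.09 CPM). CHGA was at 0 in the parental libraries and at 0.884, 1.25 and 1.22 CPM in the others, CHGB was at 5.22, 5.95 and 5.74 CPM in them against 1 count in all of the parental libraries, and the neuroendocrine factor INSM1 had no count in any library. Of 11 melanocyte and neural crest genes tested, 1 was higher (MITF, 1.49-fold), 4 were lower, among them TFAP2A (6.18-fold) and NGFR (log2 difference -0.57), and 6 did not pass. The share called was 45.5%, against 71.3% of all genes. The defining markers PMEL, MLANA, TYR and SOX10 overlapped between the lines, with PMEL at 20.7, 20.7 and 13.2 CPM against 7.07, 12 and 18.6 CPM (adjusted p = 0.209).

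Among cancer-testis genes, which are silent in most adult tissues, MAGEB2 was at 99.1, 93.5 and 106.6 CPM in the parental libraries and at 0.402, 0.600 and 0.473 CPM in the others, 202.9-fold lower (adjusted p = 2.26e-16). PRAME, which antagonises retinoic acid receptors, was in both lines and 2.69-fold higher in the libraries labelled RPL3 KO (adjusted p = 4.39e-10). Of the 22 members, 18 were below 1 CPM in every library of both lines. Fewer cells that express a gene and less RNA per cell cannot be told apart in these bulk libraries, here or for any other gene.

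Transcription factor genes were examined as 464 genes in 18 families, of which 273 were tested. In the libraries labelled RPL3 KO 131 were higher, 95 were lower and 47 did not pass, so that 82.8% were called, against 71.3% of all genes. The factors that switch cells between epithelial and mesenchymal states came out at both ends, with 9 of 14 tested members higher and 4 lower, and 4 in each direction at 4-fold. SNAI2, the repressor Slug, was at 0.259, 0.276 and 0.302 CPM in the parental libraries and at 26.0, 37.0 and 33.2 CPM in the others, 115.0-fold higher (log2 difference 6.80, standard error 0.23, adjusted p = 2.29e-14). ZEB1 was at 1.82, 1.65 and 1.51 CPM against 23.1, 23.9 and 27.8 CPM, 15.0-fold higher (adjusted p = 3.04e-13), and PRRX1, a homeobox factor of mesenchyme, at 0.972, 0 and 0.181 CPM against 9.80, 12.6 and 11.8 CPM. TCF4, here the basic helix-loop-helix factor E2-2 and not the Wnt effector TCF7L2, was at 0.259, 0.207 and 0.121 CPM against 23.5, 27.4 and 34.2 CPM. The relative of PRRX1, PRRX2, was 7.36-fold lower, and TWIST1 and TWIST2 were not tested, each with a mean under 1 CPM in both lines.

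**Figure D3:**
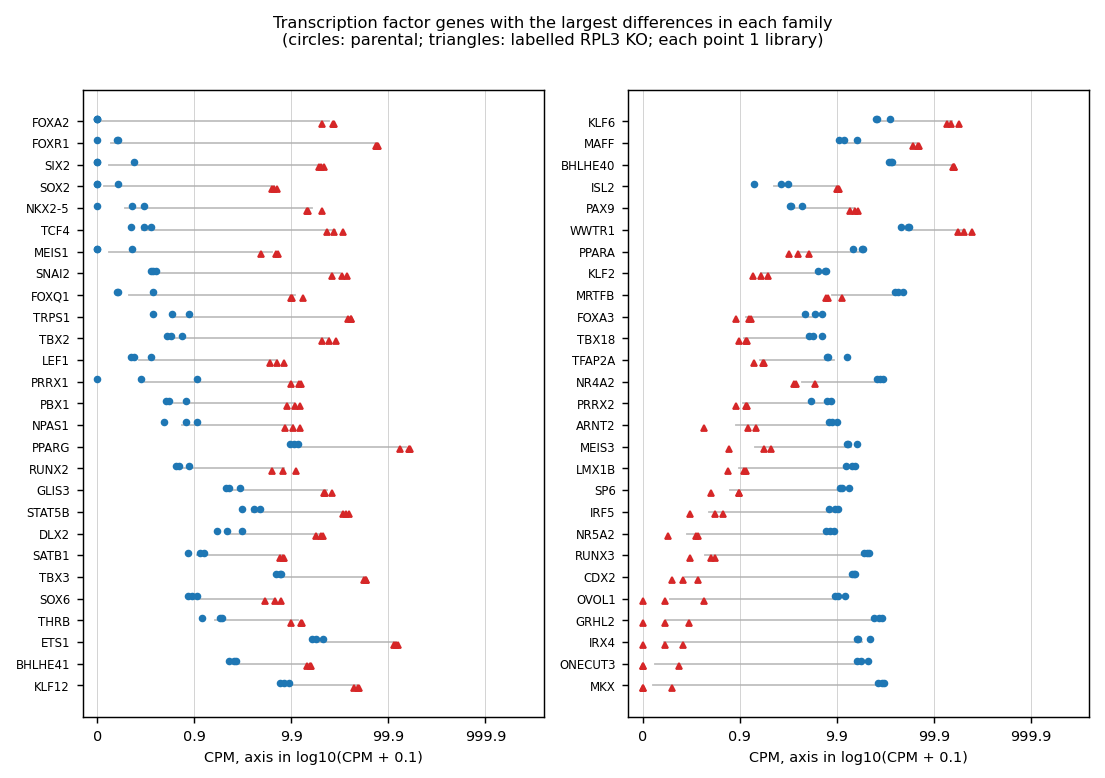
CPM in each vehicle library, on an axis in log10(CPM + 0.1), of 54 of the transcription factor genes with the largest differences in their families and a log2 difference of at least 2 in size, ordered from the highest log2 fold change (top left) to the lowest (bottom right), with circles for the parental line and triangles for the libraries labelled RPL3 KO. The libraries of a line lie close together for most genes, 33 of which are higher and 21 lower in the libraries labelled RPL3 KO.

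Forkhead genes encode winged-helix factors, several of which open chromatin in endoderm. The family had 42 members, 26 tested, 12 higher and 10 lower (84.6% called, against 71.3% of all genes). Its FOXA branch differed in both directions. FOXA2, the factor of foregut endoderm, liver and lung, was absent from the parental libraries and at 26.7, 20.5 and 27.1 CPM in the others, while FOXA3 was at 4.54, 5.85 and 6.82 CPM against 1.21, 1.15 and 0.810 CPM, 5.44-fold lower (adjusted p = 5.78e-07). FOXR1, a forkhead gene silent in most adult tissues, was at 0.0648, 0 and 0.0604 CPM against 78.8, 77.1 and 74.9 CPM (adjusted p = 2.96e-16). FOXQ1 was at 0.0648, 0.276 and 0.0604 CPM against 9.72, 10.2 and 13.0 CPM. The broadly expressed FOXK2 and FOXJ2 were 2.11-fold and 3.55-fold lower.

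Of the hepatocyte nuclear factor and ParaHox genes, 2 of the 6 tested were higher and 4 were lower, all 4 of them at 4-fold by the fitted value. Besides CDX2, ONECUT3, a relative of hepatocyte nuclear factor 6, was at 15.8, 17.6 and 20.8 CPM in the parental libraries and at 0, 0 and 0.135 CPM in the others, and PDX1, the factor of pancreas and duodenum, at 0.519, 0.758 and 1.15 CPM against 0, at least 3.35-fold lower, so that its 4-fold call rests on the fitted value alone. The related ONECUT2 was at 11.5, 11.1 and 13.9 CPM against 14.1, 14.5 and 18.1 CPM, 1.28-fold higher (adjusted p = 0.0279).

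GATA zinc finger genes were higher, 4 of the 5 tested. TRPS1, an atypical GATA repressor, was at 0.778, 0.276 and 0.483 CPM in the parental libraries and at 38.1, 41.3 and 41.0 CPM in the others, 78.3-fold higher (adjusted p = 4.69e-15). GATA2 was 3.70-fold higher and GATA6, the family's endoderm member, 2.62-fold higher, with 2.98, 3.44 and 5.44 CPM against 10.4, 11.6 and 9.05 CPM. Their cofactor ZFPM1 was 2.20-fold lower (adjusted p = 0.00145). In the SOX family SOX2 was at 0.0648, 0 and 0 CPM against 6.19, 6.96 and 6.48 CPM, SOX6 was 7.61-fold higher and SOX4 1.93-fold lower. Of 10 SOX genes tested 4 were higher and 3 lower (70% called, against 71.3% of all genes).

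Nuclear receptors, factors whose activity ligands such as hormones and lipids set, divided into 13 higher, 15 lower and 5 not passing, with 5 in each direction at 4-fold. Beside PPARG, THRB, a thyroid hormone receptor, was at 1.75, 1.10 and 1.81 CPM in the parental libraries and at 9.88, 12.7 and 12.4 CPM in the others, 7.50-fold higher (adjusted p = 6.06e-10). PPARA was 4.24-fold lower where PPARG was higher. NR5A2, a regulator of bile acid and gut genes, was at 7.58, 9.30 and 8.33 CPM against 0.0803, 0.250 and 0.270 CPM, 42.0-fold lower (adjusted p = 1.26e-10), and the early response receptor NR4A2 was 6.39-fold lower. The median of the 33 tested members was -0.14 on the log2 scale.

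Homeobox families contained several genes that were on in 1 line and nearly silent in the other. SIX2, a factor of nephron progenitors, was at 0, 0.138 and 0 CPM in the parental libraries and at 19.4, 21.7 and 20.1 CPM in the others. NKX2-5, the cardiac homeobox factor, was at 0.130, 0.207 and 0 CPM against 20.7, 14.6 and 14.4 CPM, and MEIS1 at 0.130, 0 and 0 CPM against 4.82, 7.16 and 6.82 CPM. In the other direction MKX, a factor of tendon, was at 30.7, 26.5 and 28.7 CPM against 0, 0.10 and 0 CPM, and IRX4, a factor of the heart ventricle, at 16.1, 21.7 and 16.2 CPM against 0.161, 0 and 0.0675 CPM. LMX1B was 15.4-fold lower (adjusted p = 6.98e-10). The T-box genes TBX2 and TBX3 were 47.5-fold and 7.81-fold higher and TBX18 5.81-fold lower.

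RUNX genes differed in both directions, with RUNX2, the factor of bone, at 0.778, 0.551 and 0.604 CPM in the parental libraries and 8.03, 6.26 and 11 CPM in the others, and RUNX3, a factor of lymphocytes, at 19.0, 20.3 and 21.2 CPM against 0.402, 0.450 and 0.203 CPM. RUNX2 was 13.1-fold higher and RUNX3 57.3-fold lower (adjusted p = 1.62e-09 and 3.81e-12). IRF5, an interferon regulatory factor, was 23-fold lower and IRF1 3.91-fold higher. STAT5B was 9.37-fold higher, with 4.02, 4.68 and 3.02 CPM against 39.6, 36.3 and 33.9 CPM. ETS1, an ETS factor of mesenchyme, endothelium and lymphocytes, was 6.54-fold higher, KLF6 5.41-fold higher and WWTR1, the Hippo coactivator TAZ, 4.02-fold higher. SP6 was 16.2-fold lower, and LEF1, a Wnt effector, was at 0.259, 0.138 and 0.121 CPM in the parental libraries and at 5.94, 7.01 and 8.31 CPM in the others while TCF7L2 was 3.43-fold lower.

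Surface genes numbered 395, of which 271 were tested, 118 higher, 107 lower and 46 not passing in the libraries labelled RPL3 KO (83.0% called). Cadherins, the calcium-dependent adhesion molecules, and their relatives had 9 members higher and 13 lower of 27 tested, with 7 and 10 at 4-fold. CDH3, P-cadherin, was at 140.0, 152 and 149 CPM in the parental libraries and at 0.803, 0.300 and 1.01 CPM in the others, 208.3-fold lower (log2 difference -7.78, standard error 0.23, adjusted p = 5.1e-15), next to CDH1 on chromosome 16. FAT1, a giant protocadherin, was 10.9-fold lower, at 2118, 2028 and 1928 CPM against 197, 168 and 192 CPM. CDH6, kidney cadherin, was at 0.259, 0 and 0.0604 CPM against 5.62, 6.31 and 5.87 CPM, and CDH2, N-cadherin, which mesenchymal cells often carry, stayed under 1 CPM on average in both lines (means 0.746 and 0.648 CPM) and did not pass.

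**Figure D4:**
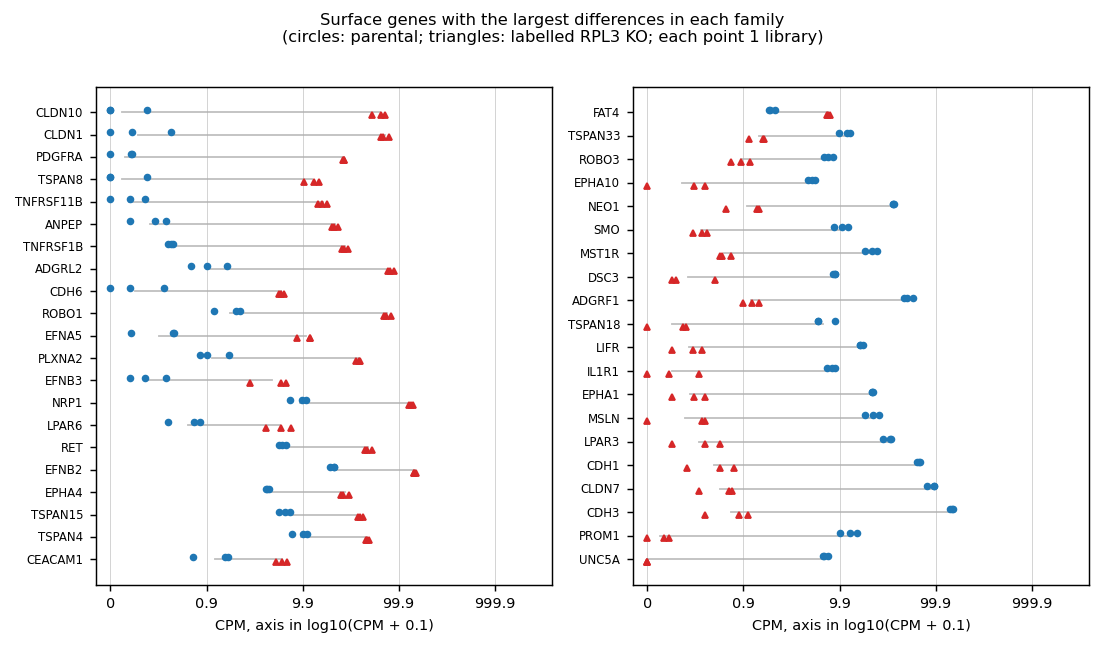
CPM in each vehicle library, on an axis in log10(CPM + 0.1), of 41 of the surface genes with the largest differences in their families and a log2 difference of at least 2 in size, ordered from the highest log2 fold change (top left) to the lowest (bottom right), with circles for the parental line and triangles for the libraries labelled RPL3 KO. UNC5A is at 0 in all 3 libraries labelled RPL3 KO, and CLDN10, CLDN1 and PDGFRA lie near 0 in the parental line.

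Claudins are membrane proteins of tight junctions. Of 21 members 9 were tested, 5 higher and 2 lower (77.8% called, against 71.3% of all genes), with 2 and 1 at 4-fold. CLDN7 was at 95.5, 97 and 80.6 CPM in the parental libraries and at 0.241, 0.651 and 0.608 CPM in the others, 182.1-fold lower (adjusted p = 1.07e-14). CLDN1 was at 0.324, 0.0689 and 0 CPM against 66.1, 69.2 and 79.8 CPM, and CLDN10, a claudin of kidney and secretory epithelia, at 0, 0.138 and 0 CPM against 52.7, 72.8 and 65.9 CPM. The summed claudin level differed far less, at 161 to 178 CPM in the parental libraries and 187 to 219 CPM in the others. CLDN4 and CLDN12 were expressed in both lines, CLDN4 2.47-fold lower and CLDN12 1.58-fold higher in the libraries labelled RPL3 KO.

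Receptor tyrosine kinases had 16 members higher and 20 lower of 40 tested, with 6 in each direction at 4-fold, and 5 of the 25 at a mean of at least 10 CPM passed at 4-fold. MST1R, the receptor RON of epithelial cells, was at 18.2, 21.9 and 24.5 CPM in the parental libraries and at 0.643, 0.50 and 0.473 CPM in the others, a log2 difference of -5.32 (adjusted p = 1.97e-13). EPHA1 was at 21.8, 21.7 and 22.3 CPM against 0.0803, 0.300 and 0.203 CPM, 112.9-fold lower, and FGFR2, named after its values were seen, was 24.4-fold lower. RET, the receptor of glial-derived neurotrophic factors, was at 5.57, 6.06 and 6.58 CPM against 53.3, 44.8 and 46.5 CPM, 7.94-fold higher (adjusted p = 2.51e-13). EPHA4 was 6.49-fold higher. EGFR and ERBB2, chosen after their values were seen, had log2 differences of -1.05 and -1.71.

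Ephrins, the membrane-bound ligands of Eph receptors, were higher for 4 and lower for 1 of 8 members, with 3 higher at 4-fold. The share called was 62.5%, against 71.3% of all genes. EFNB2 was at 19.2, 21.4 and 21.3 CPM in the parental libraries and at 152, 145.3 and 145.6 CPM in the others, 7.16-fold higher (adjusted p = 4.03e-15). EFNA5 was at 0.0648, 0.344 and 0.362 CPM against 8.68, 11.7 and 11.9 CPM, and EFNB3 at 0.130, 0.276 and 0.0604 CPM against 2.73, 5.90 and 6.55 CPM. EFNA3 was the lower member, at 13.4, 15.9 and 14.2 CPM against 4.66, 8.81 and 8.85 CPM (1.95-fold, adjusted p = 0.000303), and EFNA2 was 3.52-fold higher. EFNA1, EFNA4 and EFNB1 did not pass, with log2 differences of -0.10, -0.37 and -0.10.

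Axon guidance genes, which also steer cell migration outside the nervous system, had 11 members higher and 11 lower of 26 tested, and 7 of the 16 at a mean of at least 10 CPM passed at 4-fold (43.8%). ROBO1, a receptor of Slit proteins, was at 1.94, 2.14 and 1.09 CPM in the parental libraries and at 70.9, 74.1 and 83.1 CPM in the others, 44.1-fold higher (adjusted p = 3.84e-15). NRP1, a coreceptor of semaphorins and VEGF, was 14.4-fold higher and PLXNA2, a semaphorin receptor, 34.8-fold higher. Of the netrin receptors, NEO1 was at 36.3, 36.5 and 35.7 CPM against 1.29, 0.550 and 1.35 CPM, 34.1-fold lower, and UNC5A was at 6.74, 7.44 and 6.70 CPM against 0, at least 28.9-fold lower.

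Carcinoma surface antigens had 7 members higher and 14 lower of 26 tested, with 3 and 10 at 4-fold. MSLN, mesothelin, was at 18.2, 22.0 and 25.7 CPM in the parental libraries and at 0, 0.300 and 0.270 CPM in the others, 115.6-fold lower (adjusted p = 7.46e-13), and PROM1, the stem cell antigen CD133, at 15.2, 9.99 and 12.6 CPM against 0, 0.050 and 0.0675 CPM. CD276, the immune ligand B7-H3, was 3.47-fold higher, and CEACAM1 was 4.99-fold higher at 5.22, 6.05 and 6.82 CPM. Of the same family, CEACAM5, CEACAM6 and CEACAM7 were under 1 CPM in every library of both lines.

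CD antigens of stem, stromal and other cells had 37 members higher and 18 lower of 62 tested, with 11 and 6 at 4-fold. ANPEP, the peptidase CD13 of myeloid and brush border membranes, was at 0.194, 0.276 and 0.0604 CPM in the parental libraries and at 23.2, 20.2 and 21 CPM in the others (adjusted p = 4.83e-13). TNFRSF1B, a receptor of tumour necrosis factor, was 85.3-fold higher, with 29.8, 25.9 and 27.0 CPM in these libraries, and the decoy receptor TNFRSF11B was at 14.5, 17.9 and 15.9 CPM in them against at most 0.130 CPM. Of the cytokine receptors named by the rule, LIFR was at 16.2, 17.4 and 16.1 CPM against 0.0803, 0.200 and 0.270 CPM and IL1R1 was at 7.32, 8.20 and 8.76 CPM against 0.241, 0 and 0.0675 CPM (adjusted p = 7.95e-13 and 3.66e-10). Tetraspanins had 12 members higher and 10 lower of 25 tested, among them TSPAN15 6.15-fold higher and TSPAN33 8.43-fold lower.

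G protein-coupled receptors had 20 members higher and 20 lower of 53 tested (75.5% called, against 71.3% of all genes). ADGRL2, an adhesion receptor of the latrophilin group, was at 0.583, 1.52 and 0.906 CPM in the parental libraries and at 88.7, 76.7 and 80.5 CPM in the others, 81.8-fold higher (adjusted p = 2.16e-15). Receptors of lysophosphatidic acid differed in both directions, LPAR3 at 33.6, 34.0 and 28.5 CPM against 0.0803, 0.300 and 0.473 CPM and LPAR6 10.3-fold higher. ADGRF1 was 46.1-fold lower. SMO, the signal transducer of Hedgehog, was at 8.75, 12.3 and 10.5 CPM against 0.321, 0.200 and 0.270 CPM, 39.8-fold lower (adjusted p = 1.04e-10).

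Some genes were present in 1 line and at or near 0 in the other. At 5 CPM or more in every library of 1 line and at most 3 counts in every library of the other were 102 genes found in the libraries labelled RPL3 KO (0.65% of the genes tested) and 72 found in the parental line (0.459%). In the lists, the first group included FOXA2, FOXR1, SIX2, SOX2, NKX2-5, PROX1, LIN28B, PDGFRA, CLDN10, TFF1, TFF3 and AGR2. The second included RAB25, MARVELD3, KRT13, PROM1, ONECUT3, MKX, IRX4, UNC5A, IL1R1 and VAV1, the last a signalling protein of blood cells at 10.3, 12.4 and 11.2 CPM in the parental libraries. Antisense or overlapping genes may share reads with these, since a strand setting is not given in the sources used here.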

How the data were processed

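The authors trimmed the RNA-seq reads, removed ribosomal and other contaminant reads, ran RSEM 1.2.25 against the Ensembl annotation of hg38 and deposited RSEM expected counts (estimated, fractional and not normalized). For 11 libraries these were per gene. For replicate 2 of the vehicle-treated parental line they were per transcript and were summed per gene. RSEM divides reads between genes that share sequence, so paralogs are less certain. Counts were rounded. Of 33990 genes with any count, the 15692 that passed the filterByExpr function were scaled by TMM and fitted over all 12 libraries with 1 coefficient per group (edgeR 4.0.16, R 4.3.3, common dispersion 0.0117), and the vehicle groups were compared with the quasi-likelihood test and Benjamini-Hochberg adjustment. Folds are ratios of mean CPM where each group had at least 10 counts. Where a group had no count, a fold is a lower bound at 3 counts per library (0.207 or 0.241 CPM), which covers counting error only. Where it had fewer than 10 counts, no fold is given.

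The libraries, lists and rule for named genes were chosen with earlier results of these data known. The rule took RPL3, the defining markers, and in each list up to 3 members in each direction with the largest fold change among those passing, at 5 CPM or more and not overlapping. The 10 largest CPM differences in each direction over all genes were also taken. Names and positions came from GENCODE v44, which matched 60261 of 60617 identifiers. In simulated vehicle comparisons of 13973 genes the test recovered 96 of 100 genes changed by 1 and 100 of 100 changed by 2 on the log2 scale, with 15 false calls. Only these genes were changed, as many up as down, and every gene had the same dispersion of 0.0117. In the data 71.3% of genes were called, so these rates need not hold for them. No chance test over genes or lists was made. Alternatives were DESeq2 1.42.0, other scalings and filters, a fit of the vehicle libraries alone, a block for the replicate number, and each vehicle library left out. Genes named outside the rule were chosen after their values were seen. The E-box search, the chromosome windows and the counts of genes found in 1 line used thresholds set with results known. Some genes that the rule named are counted in their lists but are not reported here.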

Additional observations from a re-analysis of the deposited data

How the results depend on the processing

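Of the 209 named genes tested, 205 kept their direction and their side of the threshold under the 13 alternative fits in which they could be tested. The 4 others were SYP, SOX10, PMEL and RPL3. SYP (0.12 on the log2 scale) became -0.13 with scaling by library size alone, -0.004 without replicate 2 of the parental line and -0.15 without replicate 2 of the other, in a range up to 0.38 with single libraries left out. SOX10 (0.06) became -0.18 with scaling by library size alone, -0.10 without replicate 2 of the parental line and -0.06 without replicate 3 of the other, in a range up to 0.25. RPL3 became -0.11 with library size alone, and PMEL passed only with no filter on low counts (adjusted p = 0.00117). The cause was not tested. The number of genes called was between 10587 and 12029 under DESeq2, the other scalings, the other filters and the fit of the 6 vehicle libraries, and between 10677 and 11251 with each vehicle library left out. Asking for a log2 difference of 1 or 3 in place of 2 changed the 2835 genes called at 4-fold to 5912 or 1740. Genes found in 1 line were 283 and 268 at 1 CPM in place of 5, and 20 and 10 at 0 counts in place of at most 3. Leaving out single libraries, an alternative for these genes that was chosen after seeing the data, gave 104 to 123 and 75 to 98. With the replicate number as a block 10964 genes were called, 5376 higher and 5588 lower. Libraries with the same number correlated at -0.10, -0.02 and -0.04 in their deviations from the group means, so the numbers were not taken as a pairing. At these depths 3 counts correspond to 0.207 CPM in the shallowest parental library and 0.241 CPM in the shallowest library labelled RPL3 KO. This level set the fold bounds and is not the limit of the test. The low-count filter left some genes above it untested, among them NAPSA (means 0.531 CPM in the parental line and 0.0435 CPM in the other) and AFP (0.0201 and 0.49 CPM).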

Other observations

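Over all genes, the largest differences in CPM outside the lists included non-coding RNA, mitochondrial RNA and cytoskeletal genes. The signal recognition particle RNA gene RN7SL1 was at 22510, 27500 and 23170 CPM in the parental libraries and at 39970, 55790 and 45380 CPM in those labelled RPL3 KO, and shares sequence with RN7SL2. The mitochondrial ribosomal RNA gene MT-RNR1 had means of 18250 and 5608 CPM, in counts from which the authors had removed ribosomal reads. KITLG, the ligand of the receptor KIT, had means of 1296 and 15.3 CPM. EZR, which ties the cell membrane to actin in microvilli, had means of 1195 and 222 CPM, and the actin gene ACTG1 of 3296 and 1943 CPM.

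Genes on some stretches of chromosomes differed in the same direction, a pattern chosen after seeing the data and not tested. Over 136 autosomal windows of 20 Mb with at least 20 protein-coding genes at a mean of 10 CPM or more (8672 genes, median log2 fold change 0.02), the median was below -0.5 in 8 windows and above 0.5 in 14. In the window of chromosome 16 that starts at 80 Mb, 48 of 60 genes were lower (median -0.88), and in that of chromosome 17 from 60 to 80 Mb, 90 of 116 were lower (median -0.78). In the window of chromosome 1 from 180 to 200 Mb, 23 of 30 genes were higher (median 0.94), and in that of chromosome 3 from 0 to 20 Mb, 42 of 55 were higher (median 0.70). CDH1, CDH3 and ESRP2 lie in the window of chromosome 16 from 60 to 80 Mb, in which 49 of 91 genes were lower and 16 higher (median -0.44).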
